A study of Mus musculus with 11 samples.

Results

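The genes described here encode the BBSome, a coat complex that carries membrane proteins in and out of cilia, together with 2 of its controllers. They are Bbs1, Bbs2, Bbs4, Bbs5, Bbs7, Bbs9, Ttc8, Arl6 and Lztfl1, 9 genes that were matched by symbol among the 24062 genes listed for the Ift88 experiment and the 26667 listed for the Dzip1 experiment. All 9 were listed in both experiments and all 9 had enough counts to be tested in both. In humans, inherited loss of these genes causes Bardet-Biedl syndrome, a disorder of cilia. Within the complex Bbs2, Bbs7 and Bbs9 form a core, Bbs1 binds the membrane GTPase Arl6, which recruits the complex to membranes, and Lztfl1 holds the complex back in the cytoplasm. The BBSome rides on the intraflagellar transport trains to which the Ift88 protein belongs.

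RNA was sequenced from mouse mitral leaflets, the thin flaps that keep blood from flowing back into the left atrium of the heart. The Ift88 experiment held 3 knockout libraries, labelled NfatC1Cre(+) with Ift88f/f, and 2 wild-type libraries, labelled NfatC1Cre(+) with Ift88+/+, so that both groups carried the Cre. The Nfatc1 promoter is active in endocardial cells, so leaflet cells that do not descend from such cells can keep an intact Ift88 gene. The Dzip1 experiment held 3 libraries of Dzip1S14R/+, which keep 1 wild-type copy of Dzip1, a gene for a protein of the ciliary base, and 3 libraries of Dzip1+/+. The titles of the Ift88 libraries carry the mark re-analyzed, and those of the Dzip1 libraries do not. No age was given, and nothing in the labels ties a library to an animal, so the p-values below may reflect a spread between libraries that is technical. Levels are counts divided by a library's total count in M (CPM), and genotypes were tested only within each experiment.

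Library totals were 23.4 to 40.3 M counts in the Ift88 knockout, 31.4 and 53.8 M in its wild type, 86.0 to 93.5 M in S14R/+ and 75.1 to 79.1 M in its wild type. Ift88 itself was at 3.03, 4.12 and 0.428 CPM in the knockout libraries, against 6.31 and 21.2 CPM in the wild-type libraries, so the groups did not overlap, but the difference did not pass the test (edgeR quasi-likelihood, adjusted p = 0.802). Dzip1 was at 28.0 to 29.5 CPM in S14R/+ and 27.6 to 32.3 CPM in its wild type, and counts per gene cannot check a label for an amino acid change. The 2 Ift88 wild-type libraries differed from each other in tissue markers. The 12 cardiomyocyte markers summed to 29296 to 36725 CPM in the knockout, against 54325 and 114 CPM in wild-type replicates 1 and 2. The 9 markers of valve interstitial cells, all above 0 in every library, summed to 6584 to 9242 CPM in the knockout, against 1705 and 4682 CPM in the wild type. The 7 markers of valve endothelium, also all above 0, summed to 1325 to 2432 CPM in the knockout, against 206 and 2035 CPM in the wild type. Their part in the levels of the BBSome genes was not tested. Markers of cells with many motile cilia summed to between 0 and 5.06 CPM over the 5 listed genes in the Ift88 experiment, with Dnah5 and Tekt1 at 0 in all 5 libraries. They summed to between 1.61 and 2.65 CPM over the 3 listed genes in the Dzip1 experiment. In bulk samples, fewer cells of a type and less RNA per cell cannot be told apart.

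Many ciliary genes carry an X-box, the site of RFX transcription factors, near their start. All 9 genes had a RefSeq promoter sequence (GRCm38.p6, 250 bases before to 50 after the start), and the matches with at most 2 mismatches, found in 4 of the 9 genes, are shown as a feature that the choice of genes did not use. The other 5 genes matched with 3 or 4 mismatches, as 31.1% and 87.9% of all promoter entries do with up to that many. For Bbs2, on the minus strand, the window (94098460 to 94098759) lay wholly inside the annotated gene, which reaches to 94098928. Bases before that annotated start were not searched. The search took the half-sites GTTGCC and GGCAAC at 1 to 3 bases apart, a pair that reads the same on both strands, without overlap with another motif. Capitals mark the half-sites and the bases between them. The matches start 164 bases before the start of Lztfl1, 121 before that of Bbs7, at base 2 of the transcribed side of Bbs1 and at base 24 of that of Bbs4.
Lztfl1, chr9:123717768-123717796, minus strand, 0 mismatches: tttctctGTTGCCATTGGCAACggcaggc
Bbs1, chr19:4906606-4906633, minus strand, 1 mismatch: tgagctgGTTGCCAAGGCGACgcctggg
Bbs7, chr3:36613490-36613517, minus strand, 1 mismatch: cgccccgGTTGCCTTGGAAACcggccag
Bbs4, chr9:59353465-59353492, minus strand, 2 mismatches: tcagctgGTCGCCCGGGAAACggtcggc
An exact pair stood in 0.161% of the 32851 promoter entries and in 1 of the 9 genes. Up to 1 mismatch was met by 1.17% of entries and 3 of the 9 genes, and up to 2 mismatches by 5.74% of entries and 4 of the 9 genes. A match is a description of these letters and not a measured binding site.

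No BBSome gene differed between Ift88 knockout and wild-type leaflets beyond the spread of the libraries. Of the 9 genes 0 passed an adjusted p of 0.05 (edgeR, Benjamini-Hochberg over 14244 genes), where 0% of all tested genes passed. None had an unadjusted p under 0.05, which 6.01% of all genes had. DESeq2 called none of the 9 while it called 1.53% of all genes. Groups overlapped on CPM in all 9 genes, whereas 15.4% of all tested genes were higher and 7.55% lower in every knockout library than in every wild-type library. The median log2 fold change of the 9 genes was −0.26 with 2 above 0, beside a median of −0.01 and 49.4% above 0 over all tested genes. The median of the 9 moved to −0.14 with 4 above 0 without wild-type replicate 1, and to −0.48 without wild-type replicate 2. Within the libraries whose titles start with IR28N, knockout replicates 1 and 2 and wild-type replicate 1, it was −0.60. The precision was low, with a biological coefficient of variation of 87.7%, and the 95% intervals of the fold reached from 0.370 to 1.45 for Arl6, the narrowest, and from 0.103 to 89.1 for Bbs4, the widest.

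**Figure D1:**
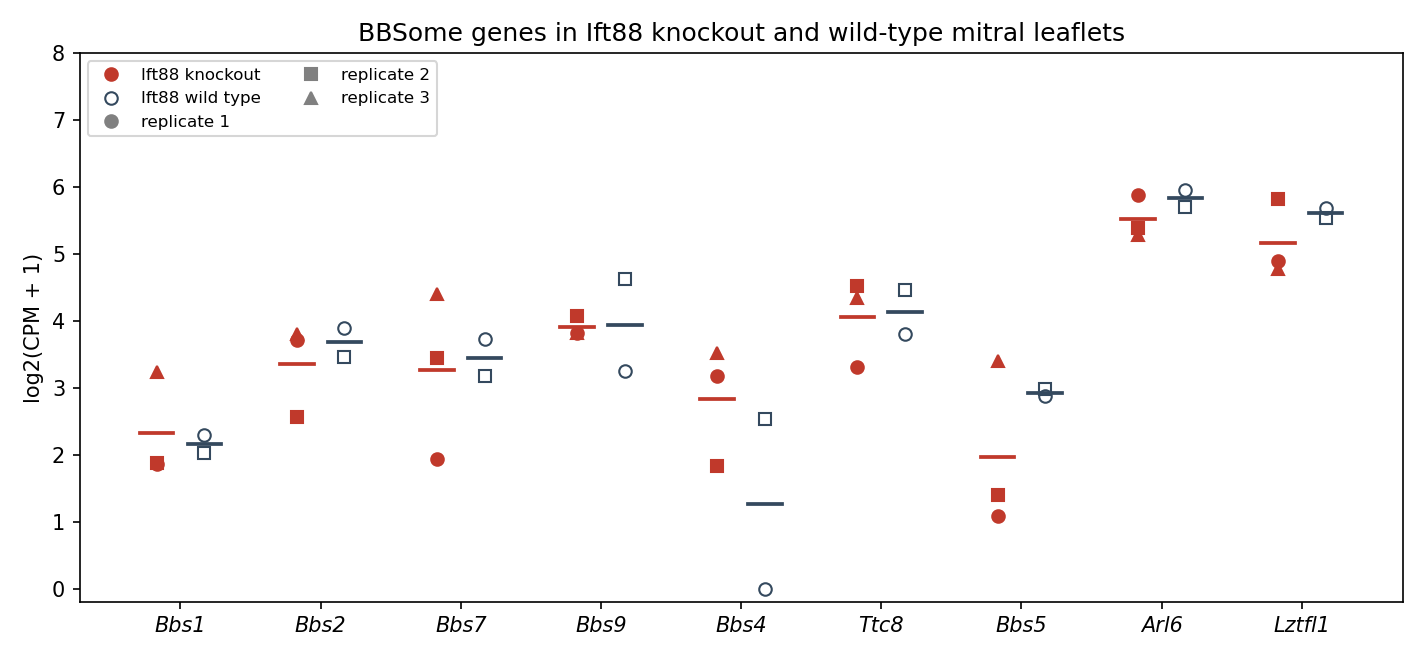
Level of each BBSome gene as log2(CPM + 1) in the 3 Ift88 knockout libraries (filled, left of each pair) and the 2 wild-type libraries (open, right); marker shape gives the replicate and the bar the mean. The groups overlap in every gene, and Bbs4 stands at 0 in wild-type replicate 1.

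Among the core subunits, Bbs2 (chromosome 8, 94067954 to 94098928, GRCm38), which builds the core with Bbs7, was at 12.05, 4.92 and 13.01 CPM in the knockout, against 13.82 and 10.04 CPM in the wild type. Knockout replicate 2 lay below both wild-type libraries and the other knockout libraries lay between them. Knockout over wild type gave a log2 fold change of −0.42 ± 0.73 (SE; 95% interval −2.20 to 1.36, edgeR adjusted p = 0.960). Bbs7 (chromosome 3, 36573142 to 36613477), a partner of similar build, was at 2.84, 9.86 and 20.12 CPM in the knockout, against 12.20 and 8.01 CPM in the wild type. The knockout libraries held both the lowest and the highest of the 5 values. Its fold change was −0.07 ± 0.94 on that scale (SE; −2.34 to 2.20). Bbs9 (chromosome 9, 22475715 to 22888280), the third core subunit, was at 13.07, 15.87 and 13.06 CPM in the knockout, against 8.50 and 23.72 CPM in the wild type. Here the spread lay in the wild type, whose 2 libraries enclosed the whole knockout group. The log2 fold change was −0.26 ± 0.59 (SE; −1.69 to 1.17).

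Bbs1 (chromosome 19, 4886878 to 4906628), the subunit that binds Arl6, was at 2.61, 2.66 and 8.39 CPM in the knockout, against 3.89 and 3.05 CPM in the wild type. Knockout replicate 3 stood above both wild-type libraries and the other knockout libraries below them. The log2 fold change was 0.23 ± 1.10 (SE; −2.45 to 2.91) and was −0.55 without knockout replicate 3. Bbs5 (chromosome 2, 69647171 to 69667571), a subunit that binds phosphoinositide lipids of membranes, was at 1.12, 1.64 and 9.59 CPM in the knockout, against 6.31 and 6.90 CPM in the wild type. The pattern was that of Bbs1, with knockout replicate 3 highest of all and the other knockout libraries lowest. Its log2 fold change was −0.83 ± 1.21 (SE; −3.76 to 2.11) and was −2.39 without knockout replicate 3, still not called.

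Bbs4 (chromosome 9, 59321990 to 59353508), a subunit built of TPR repeats that binds the centriolar satellite protein Pcm1, was at 8.004, 2.56 and 10.40 CPM in the knockout, against 0 and 4.78 CPM in the wild type. These values rested on 251, 103 and 243 counts in the knockout, against 0 and 257 counts in the wild type. A count of 0 allowed up to 0.0955 CPM in wild-type replicate 1, a limit that covers counting error only. The 0 was not particular to Bbs4, since 59 genes had no count in that library with at least 100 in each of the others. The same held for 104 genes in wild-type replicate 2, for 2, 5 and 107 genes in the knockout libraries, and for 0 genes in each Dzip1 library. The fitted log2 fold change of 1.60 ± 2.01 (SE) depended on both wild-type libraries and on the tool. It was 0.58 without wild-type replicate 1 and 3.45 with limma-voom. Without wild-type replicate 2 the wild type is at 0 and no fold is given, and the edgeR adjusted p was then 0.159, the lowest for Bbs4 among the alternatives. Exons of Bbs4 overlap those of Adpgk on the opposite strand, and the strand setting of the counting is not given in the sources used here, so reads of the shared stretch cannot be told apart. Adpgk had 591, 580 and 428 counts in the knockout, against 300 and 2526 counts in the wild type.

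Ttc8 (chromosome 12, 98920574 to 98983238), the other subunit built of TPR repeats, was at 8.96, 21.90 and 19.31 CPM in the knockout, against 12.90 and 20.93 CPM in the wild type. The group means, 16.7 ± 6.85 CPM in the knockout (SD, n = 3) and 16.9 ± 5.68 CPM in the wild type (SD, n = 2), differed by less than either SD. On the log2 scale the difference was −0.12 ± 0.59 (SE; −1.55 to 1.30).

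The genes outside the coat, Arl6 and Lztfl1, had the highest group means of the 9 in this experiment, also per kb of the longest coding transcript. Arl6 (chromosome 16, 59612949 to 59639391) was at 57.82, 40.87 and 37.88 CPM in the knockout, against 61.05 and 51.05 CPM in the wild type. Knockout replicate 1 lay between the wild-type libraries and the other knockout libraries lay below them. Arl6 had a log2 fold change of −0.45 ± 0.41 (SE; −1.43 to 0.53, edgeR adjusted p = 0.907). Lztfl1 (chromosome 9, 123694416 to 123717697) was at 28.80, 55.62 and 26.24 CPM in the knockout, against 50.64 and 45.49 CPM in the wild type. Knockout replicate 2 was the highest library and the other knockout libraries were the lowest. Its log2 fold change was −0.54 ± 0.47 (SE; −1.68 to 0.61, edgeR adjusted p = 0.904). Exons of both genes overlap annotated noncoding genes on the opposite strand. That of Arl6, 4930547E14Rik, had at most 4 counts in any library. That of Lztfl1, Gm17200, was not analysed here.

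Summed over the 9 genes, the level was 135, 156 and 158 CPM in the knockout, against 169 and 174 CPM in the wild type. These sums did not overlap, but Arl6 and Lztfl1 made up 40.6 to 64.0% of them in the knockout and 55.5 to 66.0% in the wild type. The other 7 genes summed to 48.7, 59.4 and 93.9 CPM in the knockout, against 57.6 and 77.4 CPM in the wild type, and overlapped. No test was made of the sums.

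Of the 9 log2 fold changes, 5 turned sign when a single library was left out, those of Bbs1, Bbs2, Bbs7, Bbs9 and Ttc8. Fold changes in this experiment also went with transcript length, which differed among the 9 genes from 1468 bases in Bbs5 to 5602 in Bbs1. Across 13590 tested genes the median log2 fold change was 0.78 in the fifth with the longest transcripts and −0.48 in the fifth with the shortest. Its part in the BBSome values was not tested.

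Bbip1, the small subunit of the coat that is not among the 9, was at 42.0, 37.6 and 29.8 CPM in the knockout, against 81.0 and 58.7 CPM in the wild type. Every knockout library lay below both wild-type libraries, at −1.10 ± 0.41 (SE) on the log2 scale, a difference that missed the threshold (edgeR adjusted p = 0.802, DESeq2 adjusted p = 0.346). Its exons overlap those of Shoc2 on the opposite strand.

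With Bbip1, 35 further genes of the pathway were followed, of which 32 were tested and 0 passed in either direction. Their median log2 fold change was −0.16 with 14 above 0, and 3 (Bbip1, Pcm1 and Scaper) had an unadjusted p under 0.05, against 6.01% of all genes. Groups did not overlap on CPM in 6 of the 32, beside 15.4% of all tested genes higher and 7.55% lower in the knockout. The 3 chaperonin-like factors that assemble the core gave no call. Of these, Mkks was at 68.8, 49.4 and 42.8 CPM in the knockout, against 158 and 68.2 CPM in the wild type, overlapping by knockout replicate 1, and its log2 fold change was −1.28 ± 0.53 (SE). That of Bbs12, another of them, was −0.49 ± 0.73 (SE).
Among 12 tested partners of recruitment and of the ciliary membrane, Pcm1, the satellite scaffold, was at 60.0, 57.8 and 31.2 CPM in the knockout, against 18.7 and 16.6 CPM in the wild type. The groups did not overlap, and the log2 fold change, 1.35 ± 0.49 (SE), missed the threshold (edgeR adjusted p = 0.802). Rab8a, a GTPase of transport to the ciliary membrane, was at −0.48 ± 0.31 (SE) on the same scale.
Among 8 tested genes of the syndrome outside the complex, Scaper was at 24.8, 9.56 and 19.4 CPM in the knockout, against 3.12 and 6.60 CPM in the wild type. The groups did not overlap and the log2 fold change was 1.81 ± 0.74 (SE, edgeR adjusted p = 0.802). For 2610301B20Rik it was −0.51 ± 0.37 (SE), without overlap. Among 8 tested cargoes and receptors, the values for the polycystin genes were 0.84 ± 0.65 (SE) for Pkd2 and 0.56 ± 0.45 (SE) for Pkd1, and neither passed.

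**Figure D2:**
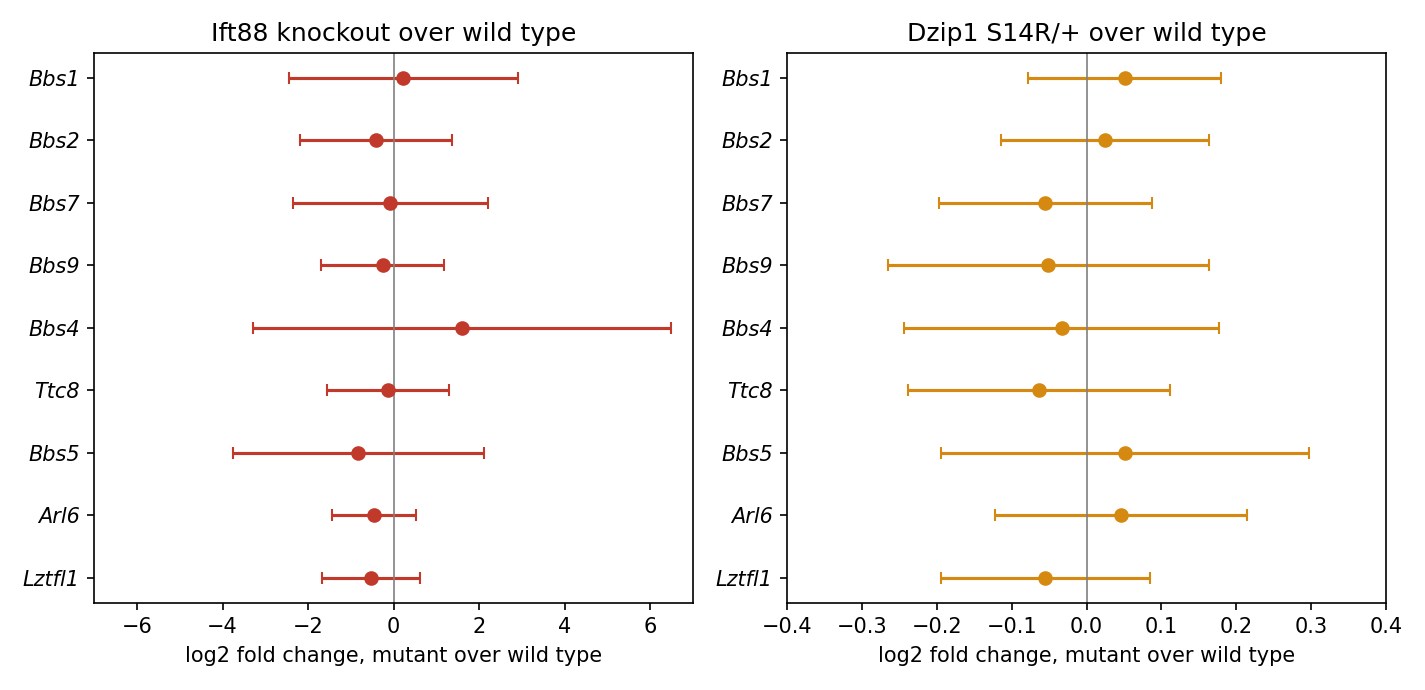
Log2 fold change of each BBSome gene, mutant over wild type, as points with 95% intervals (edgeR), Ift88 knockout in the left panel and Dzip1 S14R/+ in the right. The horizontal scale is far wider on the left than on the right, and every interval crosses 0.

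The Dzip1 groups follow the genotype labels, which the column names of the deposited table share. The fold changes in the authors' deposited table follow that grouping poorly and are not used here. Which of the groupings is right cannot be told from these values, so the Dzip1 results hold only if the labels do. In the Dzip1 experiment most of the 9 genes were measured with far less spread. Again none of the 9 differed between S14R/+ and wild-type leaflets beyond the spread of the libraries. Of the 9 genes 0 passed an adjusted p of 0.05 (edgeR, over 16160 genes), where 0% of all tested genes passed, and none had an unadjusted p under 0.05, which 5.93% of all genes had. DESeq2 and limma-voom also called 0 of the 9 and 0 of all genes. Groups overlapped on CPM in all 9 genes, beside 4.58% of all genes higher and 5.86% lower in every S14R/+ library. The median log2 fold change was −0.03 with 4 above 0, beside −0.00033 and 49.9% over all tested genes. All 9 of the 95% intervals lay between a 0.832-fold and a 1.23-fold level, so larger differences in any of these genes lay outside the intervals of these libraries.

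**Figure D3:**
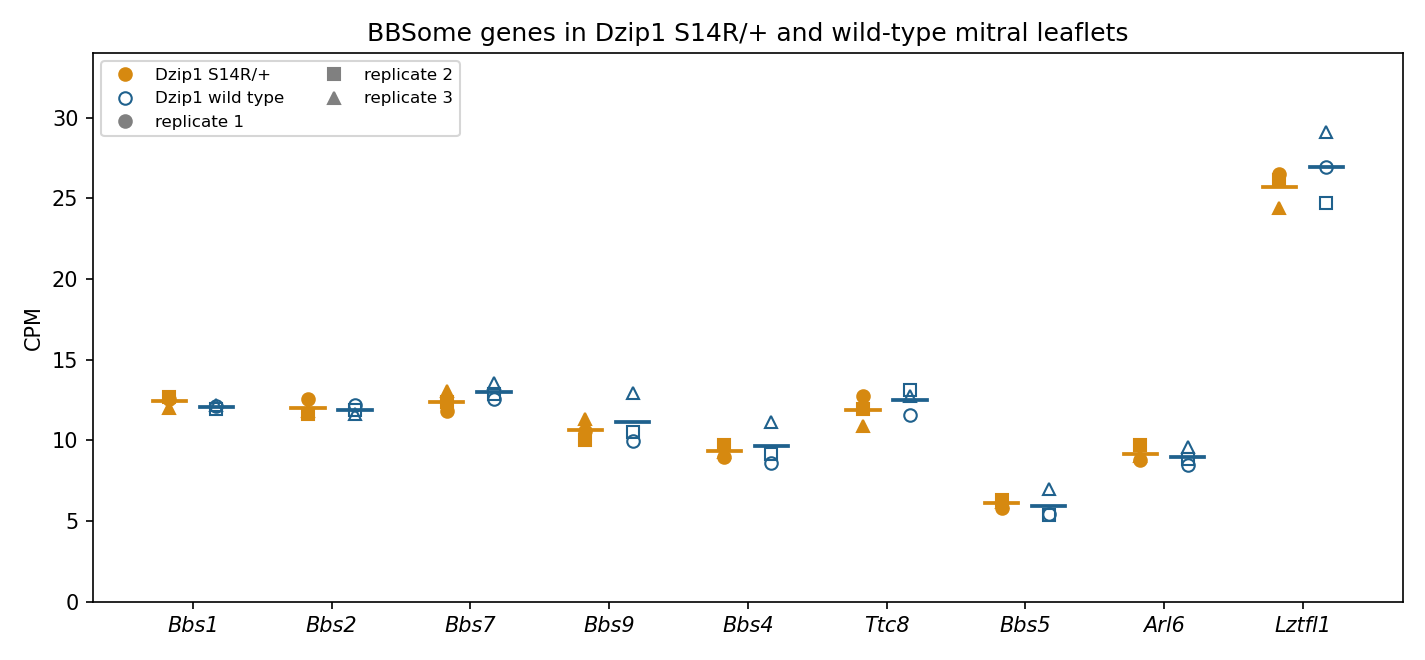
CPM of each BBSome gene in the 3 Dzip1 S14R/+ libraries (filled, left of each pair) and the 3 wild-type libraries (open, right); marker shape gives the replicate and the bar the mean. The groups overlap in every gene, and wild-type replicate 3 (open triangle) is the highest library in Bbs4, Bbs5, Bbs7, Bbs9 and Lztfl1.

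In the core, Bbs2 was at 12.60, 11.66 and 11.80 CPM in S14R/+, against 12.17, 11.91 and 11.66 CPM in the wild type. The libraries of both groups interleaved, and the log2 fold change was 0.02 ± 0.06 (SE; −0.11 to 0.16). Bbs7 was at 11.81, 12.36 and 13.06 CPM in S14R/+, against 12.59, 12.85 and 13.59 CPM in the wild type. S14R/+ replicates 1 and 2 lay below every wild-type library and replicate 3 lay among them. Its log2 fold change was −0.05 ± 0.06 (SE; −0.20 to 0.09). Bbs9 was at 10.61, 10.04 and 11.35 CPM in S14R/+, against 9.98, 10.53 and 12.96 CPM in the wild type. The wild type held both the lowest and the highest library, and the log2 fold change was −0.05 ± 0.10 (SE; −0.27 to 0.16).

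Bbs1 was at 12.56, 12.70 and 12.003 CPM in S14R/+, against 12.13, 11.97 and 12.18 CPM in the wild type. S14R/+ replicates 1 and 2 were highest and replicate 3 lay among the wild-type libraries. The log2 fold change was 0.05 ± 0.06 (SE; −0.08 to 0.18). On CPM scaled by TMM the groups just failed to overlap, in Bbs1 alone of the 9 genes. The scaled values were 12.58, 12.76 and 12.0928 in S14R/+ against 12.08, 12.0889 and 11.97 in the wild type. The share of all tested genes without overlap on that scale is not given here. A trait particular to Bbs1 therefore cannot be read from these values. Bbs5 was at 5.79, 6.31 and 6.20 CPM in S14R/+, against 5.47, 5.39 and 6.99 CPM in the wild type. Every S14R/+ library lay below wild-type replicate 3 and above the others of the wild type. On the log2 scale the difference was 0.05 ± 0.11 (SE; −0.19 to 0.30), the widest interval of the 9.

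Bbs4 was at 8.97, 9.73 and 9.29 CPM in S14R/+, against 8.61, 9.17 and 11.14 CPM in the wild type. It was detected in every library here with 677 to 881 counts, and its log2 fold change was −0.03 ± 0.09 (SE; −0.24 to 0.18). Ttc8 was at 12.75, 11.94 and 10.89 CPM in S14R/+, against 11.57, 13.14 and 12.76 CPM in the wild type. S14R/+ replicate 3 was the lowest library and the groups otherwise interleaved. On the log2 scale the difference was −0.06 ± 0.08 (SE; −0.24 to 0.11).

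The recruiting GTPase Arl6 was at 8.82, 9.73 and 9.01 CPM in S14R/+, against 8.49, 8.84 and 9.60 CPM in the wild type. S14R/+ held the highest library and the wild type the lowest, with a log2 fold change of 0.05 ± 0.08 (SE; −0.12 to 0.21). The cytoplasmic regulator Lztfl1 was at 26.49, 26.13 and 24.41 CPM in S14R/+, against 26.93, 24.71 and 29.11 CPM in the wild type. The log2 fold change was −0.05 ± 0.06 (SE; −0.19 to 0.09, edgeR adjusted p = 0.900), and S14R/+ replicate 3 was the lowest library.

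Dzip1 wild-type replicate 3 stood above the other 5 libraries in 5 of the 9 genes, and in Bbip1. The share of all tested genes highest in this library is not given here, so a pattern particular to the BBSome genes cannot be read from this library. Over the mean of the other 2 wild-type libraries it was 25.3% higher in Bbs4, 28.8% in Bbs5, 26.4% in Bbs9, 12.7% in Lztfl1 and 6.86% in Bbs7. It did not stand above the others in Bbs1, Bbs2, Ttc8 or Arl6, where it differed from the other wild-type libraries by 1.05%, −3.16%, 3.32% and 10.7%. The same library had the highest summed level of the 9 markers of valve interstitial cells, 8256 CPM against 6085 to 7212 CPM in the other 5, and the lowest of the 12 cardiomyocyte markers, 36831 CPM against 40754 to 42865 CPM. It was also highest for valve endothelium (1184 CPM, next 1171), leukocyte (69.1, next 59.3), epicardial (289, next 248) and motile cilia markers (2.65, next 2.48). Red cell markers were highest in wild-type replicate 1, at 193 CPM against 154 CPM in replicate 3. The part of these tissue markers in the BBSome levels of wild-type replicate 3 was not tested. Without this library the median log2 fold change of the 9 genes was 0.04 with 5 above 0, Bbs4 and Bbs9 turned to 0.07 and 0.06, and Bbs5 was at 0.17; none was called.

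**Figure D4:**
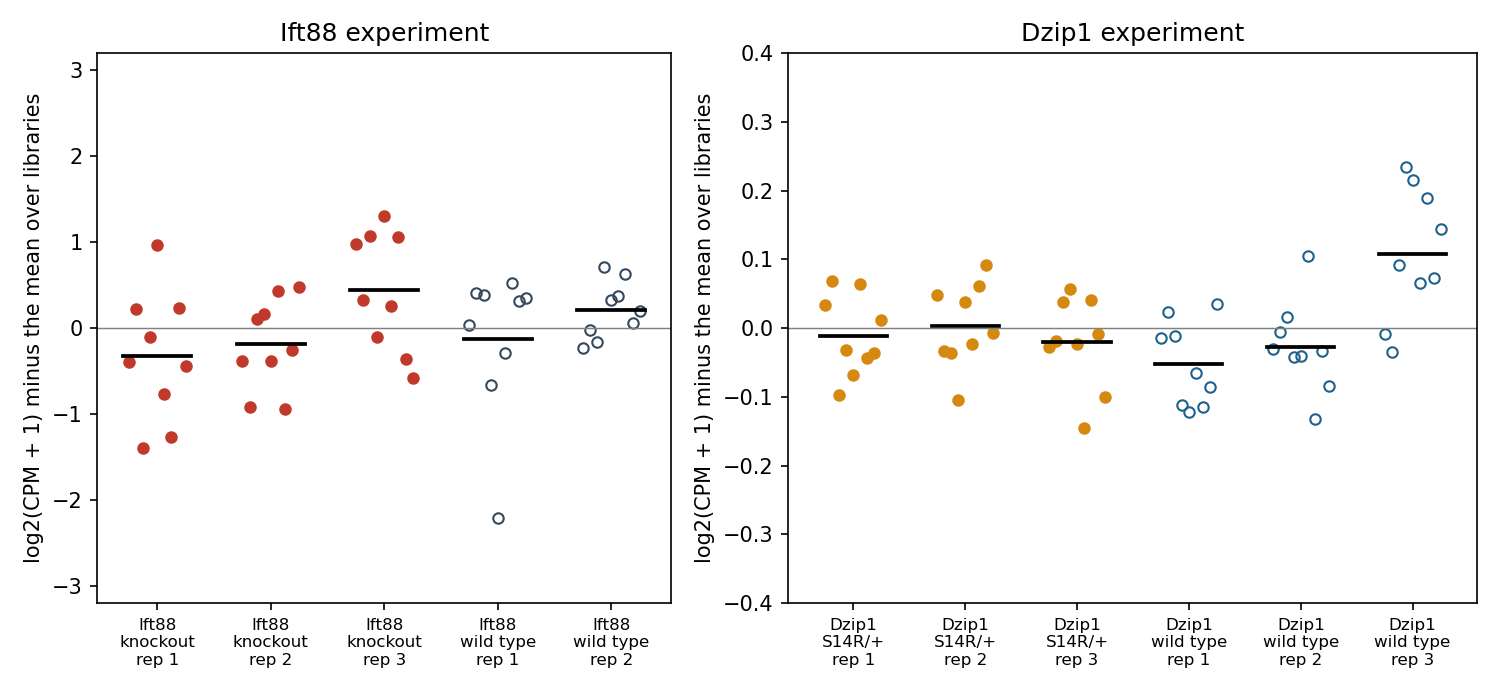
Deviation of each BBSome gene from its own mean over the libraries of its experiment, in log2(CPM + 1), for every library; points run from left to right in the order of the other plots, from Bbs1 to Lztfl1, and black bars are means over the 9 genes. The vertical scale is wider in the Ift88 panel than in the Dzip1 panel, where wild-type replicate 3 has the highest bar.

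Bbip1 was at 15.5, 15.5 and 16.7 CPM in S14R/+, against 17.2, 14.9 and 17.6 CPM in the wild type, with overlap, and differed by −0.05 ± 0.07 (SE) on the log2 scale. Of the 35 further genes of the pathway, 33 were tested and 0 passed, with a median log2 fold change of −0.01 and 13 above 0. Groups did not overlap on CPM in 2 of the 33, beside 4.58% of all tested genes higher and 5.86% lower in S14R/+. An unadjusted p under 0.05 was met by 1 gene. That gene was Inpp5e, a lipid phosphatase of the ciliary membrane, at 35.3, 34.2 and 32.1 CPM in S14R/+, against 36.6, 38.05 and 39.0 CPM in the wild type. All S14R/+ libraries lay below all wild-type libraries, by −0.15 ± 0.05 (SE) on the log2 scale, and the difference missed the threshold (edgeR adjusted p = 0.822). Rab3ip, an exchange factor for Rab8a, differed by 0.06 ± 0.04 (SE) on that scale. Of the assembly factors, Bbs10 differed by 0.13 ± 0.10 and Mkks by −0.03 ± 0.05 (SE). Of the syndrome genes, Sdccag8 differed by 0.07 ± 0.07 and Wdpcp by 0.07 ± 0.08 (SE). Among the cargoes and receptors, Pkd2 differed by −0.08 ± 0.04 and the receptor gene Gpr19 by 0.21 ± 0.11 (SE), and neither passed.

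All 9 genes varied more between libraries of the Ift88 knockout than between those of S14R/+. The wild types differed the same way except in Bbs5 and Lztfl1. Their coefficients of variation were 6.33% and 7.57% in the Ift88 wild type, against 15.2% and 8.18% in the Dzip1 wild type. The coefficient of variation of the 9 genes ran from 2.97 to 7.86% in S14R/+ and from 0.880 to 15.2% in its wild type. It ran from 11.6 to 115% in the Ift88 knockout and from 6.33 to 141% in the Ift88 wild type. Counting alone gives 2.08 to 4.27% in S14R/+, 2.19 to 4.66% in its wild type, 2.63 to 9.61% in the knockout and 2.07 to 8.82% in the Ift88 wild type. The observed spread was 0.994 to 2.56 times the counting error in S14R/+ and 0.270 to 4.18 times in its wild type. It was 2.45 to 15.6 times in the knockout and 1.07 to 18.6 times in the Ift88 wild type, so the ranges overlap between the experiments. The most variable gene in the knockout was Bbs5 and the least variable Bbs9, while in the S14R/+ group they were Ttc8 and Bbs1. Over all tested genes the median coefficient of variation was 37.2% in the knockout and 53.2% in the Ift88 wild type, and 4.39% in S14R/+ and 6.35% in its wild type.

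Per kb of the longest coding transcript, the 9 genes lay close together in the Dzip1 experiment. In S14R/+ the order of levels was Lztfl1 at 6.31, Arl6 at 5.42, Ttc8 at 5.22, Bbs7 at 4.62, Bbs5 at 4.16, Bbs2 at 3.92, Bbs4 at 3.70, Bbs9 at 3.05 and Bbs1 at 2.22 CPM per kb. In its wild type the order was Lztfl1 at 6.61, Ttc8 at 5.50, Arl6 at 5.29, Bbs7 at 4.84, Bbs5 at 4.05, Bbs2 at 3.89, Bbs4 at 3.83, Bbs9 at 3.19 and Bbs1 at 2.16 CPM per kb. In the wild type only the first and the last step of that order separated neighbours whose libraries did not overlap. The highest gene was 2.85 times the lowest in S14R/+ and 3.06 times in the wild type. The order depends on the length used. Per kb of all annotated exons, a choice added after seeing the data, Arl6 was first in both groups, at 4.38 CPM per kb in S14R/+ and 4.28 in the wild type, and Lztfl1 was at 2.30 and 2.41.

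In the Ift88 experiment the 9 genes were far less even, with Arl6 at 26.8 CPM per kb in the knockout and 33.1 in the wild type, per kb of the longest coding transcript. Lztfl1 followed at 9.06 in the knockout and 11.8 in the wild type, and Ttc8 at 7.36 and 7.45. Bbs1 was lowest, at 0.813 in the knockout and 0.619 in the wild type, so that the highest gene was 33.0 times the lowest in the knockout and 53.4 times in the wild type. Arl6 was also the first of the 9 per kb of all exons, at 21.7 CPM per kb in the knockout and 26.7 in the wild type. Ttc8 then came before Lztfl1, with Ttc8 at 4.42 and Lztfl1 at 3.31 in the knockout and Ttc8 at 4.47 and Lztfl1 at 4.31 in the wild type. The tables were counted and normalized apart and no test was made across them, so the 6.24-fold ratio of Arl6 between the Ift88 and the Dzip1 wild type is a description.

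**Figure D5:**
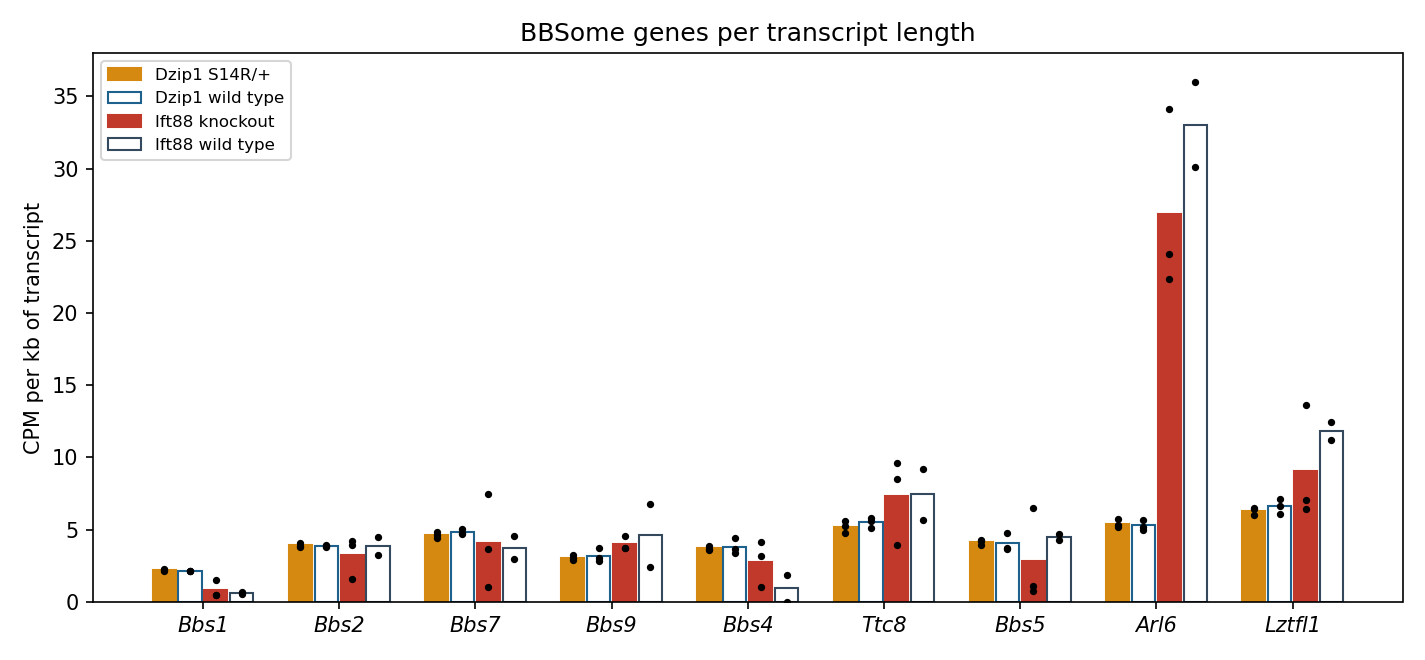
CPM per kb of the longest coding transcript for each BBSome gene in S14R/+, Dzip1 wild type, Ift88 knockout and Ift88 wild type, from left to right; bars are group means and black points single libraries. Arl6 stands above the other genes in both Ift88 groups but not in the Dzip1 groups.

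The genes whose profile over the 11 libraries was most like the mean of the 9, by the root mean square difference of log2 CPM centred within each experiment, were Rnf122, Rab1b, Anapc4, Mapkapk5 and Map2k2. Their differences were 0.0516 to 0.0657 among 11589 genes compared. The single BBSome genes differed from their own mean by 0.229 for Bbs1 to 0.787 for Bbs4. By this difference they ranked from 1251 (Bbs1) to 9667 (Bbs4) among 11598 genes, so many other genes lay closer to that mean than any of the 9.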

How the data were processed

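RNA of 11 mitral leaflet libraries was extracted with RNeasy and DNase and made into libraries with SMART-Seq v4, per the labels' protocols. The submitters' processing notes name GRCm38 and the tools cutadapt 1.11, FastQC 0.11.5, DESeq, DESeq2 and HTSeq. No aligner, annotation or strand setting is given in the sources used here. The authors deposited counts per gene and library in a table for each experiment. The other deposited columns are results of the authors: a signal (mean normalised count), log2 fold changes with standard errors, a score (fold change over its error), and p-values with adjusted p-values. The deposited Dzip1 fold changes followed the labelled genotypes poorly (Spearman −0.543 across genes) and the column order closely (−0.958), so they are not used here. These values cannot tell whether the labels or the deposited grouping is right. All Dzip1 results here rest on the labels, and an error in the labels would change them. Why they differ was not tested, and which grouping the authors used is not given in their table. The Ift88 ones gave 0.946.

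Genes were tested with edgeR 4.0.16 (R 4.3.3; quasi-likelihood F test, TMM, filterByExpr, Benjamini-Hochberg at 0.05) in each experiment, with DESeq2 1.42.0 and limma-voom 3.58.1 as alternatives. Standard errors are the fold change over the root of F. Lengths and positions came from GENCODE M21 and promoters from RefSeq. The steps were also run on simulated data with set changes, and how many of these they recovered is not reported here. Groups follow the genotype labels, and replicate numbers, given in accession order, pair nothing. The text names all 9 genes, Ift88, Dzip1, and of each further list the genes past the threshold, filled up to 2 by the smallest p. Members and lists were chosen with earlier results of these data known.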

Additional observations from a re-analysis of the deposited data

How the results depend on the processing

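The count of BBSome genes called was 0 in both experiments with DESeq2, limma-voom, RLE scaling, library totals alone, no filter beyond 1 count, an adjusted p of 0.1, a mean count of at least 50 and each library left out. For Ift88 it was also 0 with the authors' deposited adjusted p, in the IR28N libraries alone, and with the title prefix as a covariate, a fit added after seeing the data. Over all 24062 listed genes, the authors' deposited adjusted p for Ift88 called only 175 higher and 9 lower, so 0 of 9 sets the BBSome genes apart from no others. The edgeR counts of calls over all genes were 0 in both experiments in the fits that kept every library. In the Dzip1 fits with a library left out, 1 gene was called lower without S14R/+ replicate 2. Without wild-type replicate 1 there were 2 lower, without wild-type replicate 2 there were 10 lower, and the rest gave 0. Calls over all genes also arose without Ift88 wild-type replicate 1, a fit with 1 wild-type library, for which no count is given. Apart from leaving out a library, 67 of 72 single-gene fold changes in the Ift88 experiment and 54 of 54 in the Dzip1 experiment kept their direction. The exceptions in Ift88 were Bbs7 at 0.11 with library totals alone, and Bbs1 at −0.86 and Bbs9 at 0.46 both in the IR28N libraries alone and with the title prefix as a covariate. IR28N is the prefix of knockout replicates 1 and 2 and wild-type replicate 1, and each other Ift88 library has a prefix of its own. The covariate therefore takes up each of those other libraries. Its fit and that of the IR28N libraries alone rest on the same contrast and are not separate checks. Both fits are counted among the 72. The median of the 9 genes was −0.60 in both. With each library left out, 36 of 45 and 48 of 54 kept it. In Ift88 the log2 fold changes then ran from −0.55 to 0.59 for Bbs1, −0.77 to 0.0236 for Bbs2, −0.85 to 0.45 for Bbs7, −0.74 to 0.41 for Bbs9 and −0.35 to 0.13 for Ttc8. In Dzip1 they ran from −0.0086 to 0.0460 for Bbs2, −0.11 to 0.0708 for Bbs4, −0.0051 to 0.17 for Bbs5 and −0.12 to 0.0574 for Bbs9. Where 1 wild-type library is left, it is assumed to vary like the others; the cause of these turns was not tested. No paired analysis was possible because the labels give the groups no shared replicate numbers, and nothing in them says what the title prefix marks. Per kb of all exons, 18 of the 18 group levels in the Dzip1 experiment moved by more than 1 SD. All exons together are longer than the longest coding transcript in each of the 9 genes, so every level had to fall. The move is therefore no check of the counts. At the depth of Ift88 wild-type replicate 1, Bbs4 below 0.0955 CPM was not detectable.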
